A study of Saccharomyces cerevisiae with 20 samples.

Results

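The genes described here belong to the RNA polymerase I (Pol I) and RNA polymerase III (Pol III) machinery. They are 31 of the 5985 nuclear protein-coding genes of Saccharomyces cerevisiae with values. The list was made by systematic name without a rule on measured values, but earlier results of these data were known. They consist of 7 genes for subunits found in Pol I only, 2 for subunits shared by Pol I and Pol III, 10 for Pol III subunits, 5 for subunits shared by the 3 nuclear polymerases and 7 for Pol I initiation factors. For comparison, 7 genes for subunits specific to RNA polymerase II (Pol II), 9 genes for Pol III initiation factors or the Pol III regulator Maf1, and RRN10, HMO1 and SPT15, which encode a subunit of the upstream activating factor, a protein that binds rRNA genes and the TATA-binding protein, were followed, 19 in all. Each of the 31 genes had values in every file, and no gene was left out by a filter.

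Pol I transcribes the large ribosomal RNA precursor, and Pol III transcribes tRNA genes and other small RNA genes. The genes that encode both enzymes are themselves transcribed by Pol II, and in yeast they belong to the growth-related genes whose expression is lowered under many stresses. Several of these genes carry a promoter element that took its name from polymerases A and C, the older names of Pol I and Pol III. The histone acetyltransferase Gcn5, the catalytic subunit of the SAGA complex, acetylates lysines of the histone H3 tail including H3K18, a mark of active promoters, whereas H4K16ac is laid down by other enzymes and histone H3 itself reports nucleosome density.

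Budding yeast of the BY4742 background with the GCN5 gene fused to a MYC13 tag (KanMX6 marker, MATα, with his3, leu2, lys2 and ura3 mutant alleles) was grown in rich glucose medium, and every sample came from this 1 tagged strain. Sample A was taken during logarithmic growth without added KCl, sample B 1 hour after transfer to 1 M KCl, sample C after the cells had adapted to growth in 1 M KCl, sample D 1 hour after return to medium without KCl, and sample E after recovery in that medium. Chromatin immunoprecipitated with antibodies against the Gcn5 tag, H3K18ac, H4K16ac or H3 was set against input DNA on tiling arrays (ChIP-chip), which gave 20 files, 1 for each of 4 antibodies and 5 samples. The study describes 2 cultures, but there is 1 file per antibody and sample, and whether it holds the mean of both cultures or 1 of them is not given in the sources used here. There is thus 1 value per antibody and sample, no replicate error can be given, and no test between samples was run. Each gene is divided into 38 bins, of which 9 cover the upstream intergenic region from its middle to the start codon (5′ IGR), 20 the open reading frame (ORF) and 9 the downstream intergenic region up to its middle (3′ IGR). A level is the mean over the bins of a region. The scale is logarithmic with an unnamed base and arbitrary units, so that differences and not folds are given. The comparison of sample A with sample B is written A to B, and the others likewise. A gene is said here to have risen or fallen where its level differed by at least 0.2 between the samples compared, and the count for the 31 genes is set beside the percentage of all 5985 genes that met the same criterion. This criterion is a size and not a test.

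The median of H3K18ac upstream of the polymerase genes was lowest in samples B and D, each taken 1 hour after a change of medium. The median level at the 5′ IGR over the 31 genes was 0.345 before stress, 0.197 in sample B, 0.575 after adaptation, 0.266 in sample D and 0.422 after recovery, whereas the median over all genes stayed between 0.480 and 0.525. The median of sample D was nearer to that of sample A than to that of sample C. After subtraction of H3, given below, sample D was close to samples A and E. From A to B, 22 of 31 genes fell, against 22.4% of all genes, and 1 rose, against 13.1% of all genes. The median difference was -0.239 for the 31 genes and -0.0511 for all genes. The median percentile of the 31 genes among all genes was 17.4, where a low percentile stands for a large fall.

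**Figure D1:**
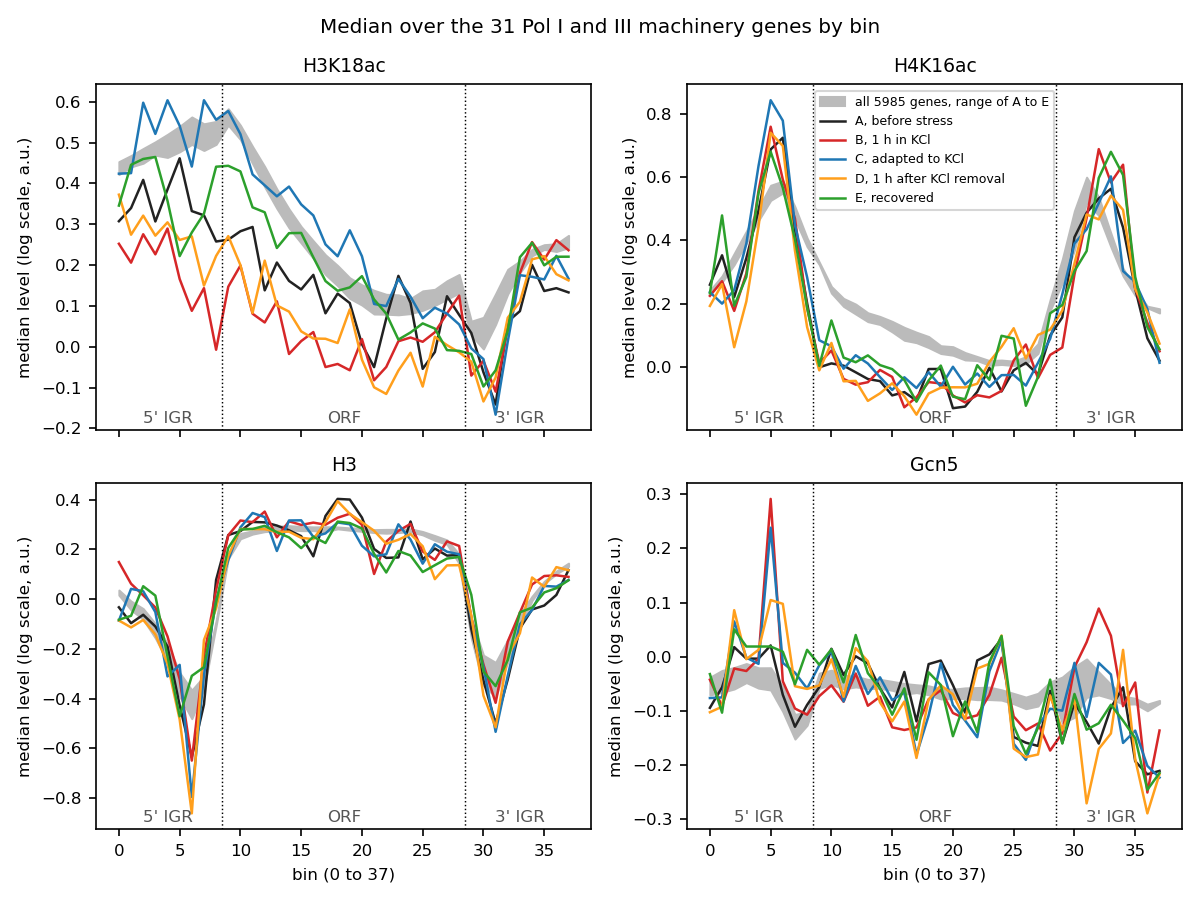
Median level (log scale, arbitrary units) over the 31 genes in each of 38 bins for H3K18ac, H4K16ac, H3 and Gcn5. Coloured lines are samples A to E and the grey band is the range of the 5 medians over all 5985 genes. H3K18ac lines of samples B and D lie below those of sample C throughout the 5′ IGR, which does not hold for the other antibodies.

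The difference between samples A and B was larger in the bins near the start codon than inside the gene. At bin 0, in the middle of the intergenic region, the median difference of H3K18ac was -0.148, at bin 5 it was -0.340, and at bin 8, which borders the start codon, it was -0.275. Inside the ORF it was -0.167 at bin 9, -0.0910 at bin 18 and -0.0101 at bin 28. Over all genes it was -0.0556 at bin 5 and 0.0264 at bin 18.

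The Pol I subunit genes had the lowest median difference of the 5 classes, -0.403, and 6 of 7 fell. RPA190 (YOR341W) encodes the largest subunit, which forms the active centre together with the product of RPA135 (YPR010C). H3K18ac upstream of RPA190 was -0.071, -0.47, 0.74, -0.23 and 0.14 in samples A to E. The samples taken 1 hour after a medium change were thus the lowest and the KCl-adapted sample the highest. RPA43 (YOR340C), the gene of a stalk subunit, lies head to head with RPA190 across an intergenic region of 804 bp, and the 5′ IGR bins of each gene cover the side next to it. Its values were -0.60, -1.10, 0.55, -1.03 and -0.31 in samples A to E, the same order as at RPA190.

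The remaining Pol I subunit genes followed this order in part. RPA135 had values of 0.15, 0.16, 0.79, 0.15 and 0.52 in samples A to E, so that sample B differed from sample A by 0.010 and sample C stood out. RPA49 (YNL248C) and RPA34 (YJL148W), which encode the paired subunits that aid initiation and elongation, fell by 0.44 and 0.36. RPA12 (YJR063W), whose product is needed for RNA cleavage, fell by 0.44 and RPA14 (YDR156W), whose product is the second stalk subunit, by 0.30. RPA14 overlaps another ORF, YDR157W, so that its values cannot be assigned to 1 gene.

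The 2 subunits shared by Pol I and Pol III went in opposite directions. RPC40 (YPR110C) fell by 0.45, with 0.16, -0.29, 0.31, -0.033 and 0.15 in samples A to E. RPC19 (YNL113W) had the largest rise of the 31 genes, 0.30, with 0.13, 0.43, 0.32, 0.014 and 0.13 in samples A to E. In the 4 bins next to the start codon, however, RPC19 differed by -0.11 and RPC40 by -0.58. Over the ORF the differences were -0.17 and -0.080. The products of both genes form the assembly platform of the enzymes, in the place that the products of RPB3 and RPB11 take in Pol II. For RPB3 and RPB11 the differences from A to B were -0.13 and -0.057.

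**Figure D2:**
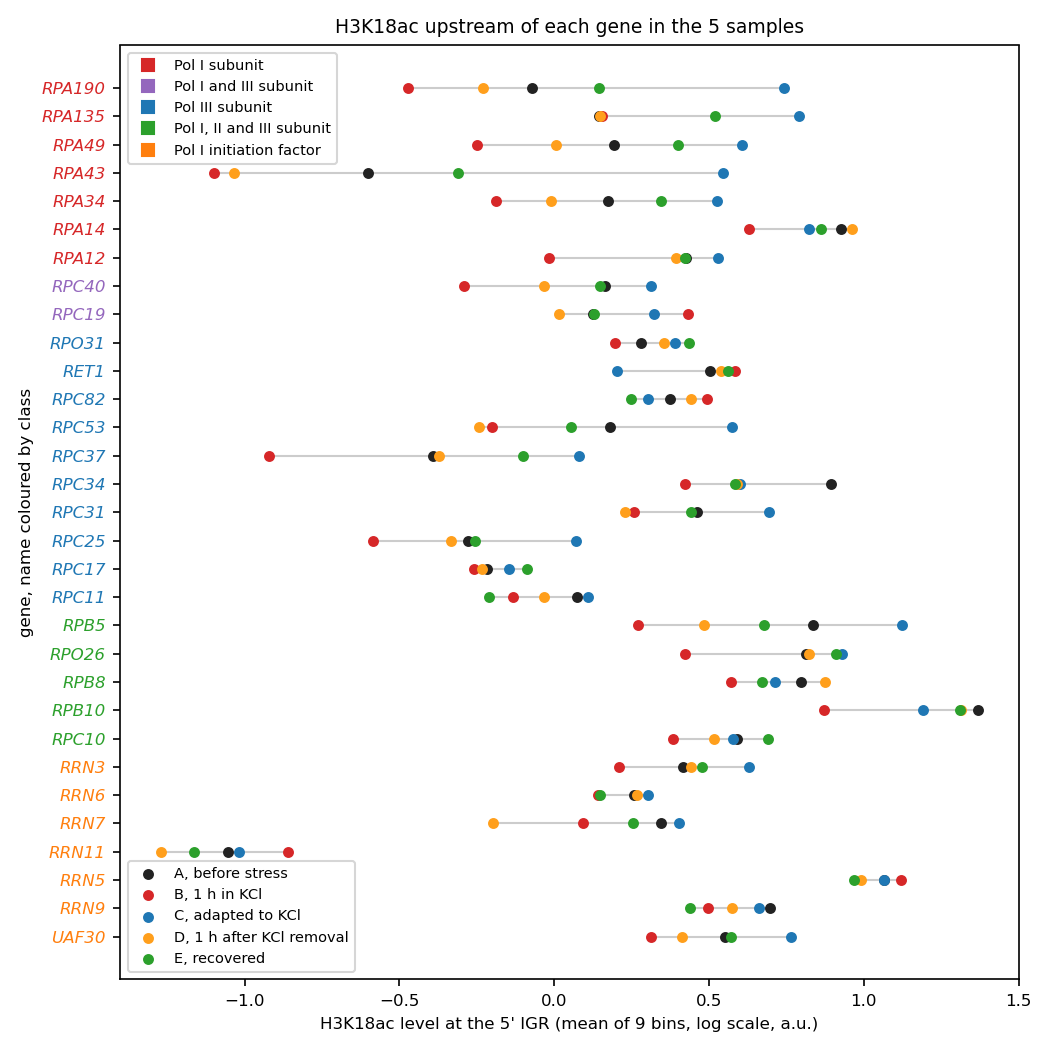
H3K18ac level at the 5′ IGR (log scale, arbitrary units, mean of 9 bins) of each of the 31 genes, 1 point for each of samples A to E and gene names coloured by class. Sample B is the lowest point for 20 genes and sample C the highest for 18.

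Of the 10 Pol III subunit genes, 6 fell from A to B and none rose, with a median of -0.205. RPO31 (YOR116C) and RET1 (YOR207C) encode the largest subunits of Pol III. RPO31 had values of 0.28, 0.20, 0.39, 0.36 and 0.43 in samples A to E, and RET1 had 0.50, 0.58, 0.20, 0.54 and 0.56. At RPO31 sample B was the lowest by a difference of -0.084 from sample A, and at RET1 sample C was the lowest. The Pol III gene with the largest fall was RPC37 (YKR025W), whose product acts in termination and re-initiation together with that of RPC53 (YDL150W). RPC37 had -0.39, -0.92, 0.080, -0.37 and -0.10 in samples A to E, and RPC53 fell by 0.38.

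The genes of the Pol III subcomplex that acts in initiation did not move together. RPC34 (YNR003C) fell by 0.47 and RPC31 (YNL151C) by 0.20, while RPC82 (YPR190C) had 0.38, 0.49, 0.30, 0.44 and 0.25 in samples A to E, a difference of 0.12. Of the stalk genes, RPC25 (YKL144C) fell by 0.31 and RPC17 (YJL011C) differed by -0.043. RPC11 (YDR045C), whose product is needed for RNA cleavage, fell by 0.21.

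All 5 genes for subunits shared by the 3 polymerases fell from A to B, with a median of -0.390. RPB5 (YBR154C) had the largest fall of the 31 genes, 0.56, with 0.84, 0.27, 1.12, 0.48 and 0.68 in samples A to E. RPB10 (YOR210W) started from the highest level of the set, 1.37, and had 0.87 in sample B and 1.19, 1.31 and 1.31 in samples C to E. The falls of RPO26 (YPR187W), RPB8 (YOR224C) and RPC10 (YHR143W-A) were 0.39, 0.23 and 0.21. In RPC10, RPB8 and RPB10 the KCl-adapted sample C was lower than sample A, whereas in RPB5 and RPO26 it was higher.

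Of the 7 genes for Pol I initiation factors 4 fell, with a median of -0.203. RRN3 (YKL125W), whose product binds Pol I and brings it to the promoter, had 0.42, 0.21, 0.63, 0.44 and 0.48 in samples A to E. Among the core factor genes RRN7 (YJL025W) fell by 0.25, RRN6 (YBL014C) differed by -0.12 and RRN11 (YML043C) by 0.19. RRN11 had the lowest level of the set in samples A, C, D and E, though not in sample B, with -1.05, -0.86, -1.02, -1.27 and -1.16 in samples A to E. The upstream activating factor binds ahead of the core factor, and of its genes UAF30 (YOR295W) and RRN9 (YMR270C) fell by 0.24 and 0.20 while RRN5 (YLR141W) differed by 0.054. Of the 4 genes that fell, RRN7 and RRN9 differed by only 0.028 and -0.042 in the 4 bins next to the start codon. RRN3 and UAF30 fell there by 0.23 and 0.30.

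The genes of the comparison lists showed fewer falls. None of 7 Pol II-specific subunit genes fell from A to B, and their median difference was -0.104. Of the 9 Pol III factor and regulator genes 1 fell, TFC6, a subunit gene of the factor that binds tRNA genes, by 0.25, and their median difference was 0.0234. TFC7, another subunit gene of that factor, rose by 0.25. Of all 19 comparison genes 1 fell, and the difference between these lists and the 31 genes was not tested. Of the 22 falls, 5 lay within 0.01 of the limit, the smallest being 0.203, and with a limit of 0.3 there were 13 falls.

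The return to medium without KCl gave a second set of falls, counted from sample C, the highest sample at many of these genes. From C to D, 15 of 31 genes fell, against 13.7% of all genes, and 1 rose, against 20.8% of all genes. The median difference was -0.188 for the 31 genes and 0.0422 for all genes. Against the mean of samples A, C and E in place of sample C alone, it was -0.104 for the 31 genes, and the mean difference from C to D was -0.291. Pol I subunit genes had the lowest class median, -0.599, with 5 of 7 falling. The fall of 1.58 at RPA43 was the largest of all 5985 genes, and the fall of 0.97 at RPA190, on the other side of their intergenic region, was number 15 in that order. Both genes shared by Pol I and Pol III fell, RPC40 by 0.35 and RPC19 by 0.31. Of the Pol III genes 4 fell, with 0.82 at RPC53 as the largest, and RET1 rose by 0.34. Of the genes shared by the 3 polymerases 1 fell, RPB5, by 0.64, and of the Pol I initiation factors 3, with 0.60 at RRN7 as the largest.

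The 2 medium changes share no sample, and 12 of 31 genes fell after both, against 7.17% of all genes. Singly, 22 of 31 genes fell from A to B and 15 of 31 from C to D, against 22.4% and 13.7% of all genes. Whether 12 is more than these single counts alone would give was not tested. These 12 genes were RPA190, RPA49, RPA43, RPA34, RPC40, RPC53, RPC37, RPC31, RPC25, RPB5, RRN7 and UAF30, which include 4 of 7 Pol I and 4 of 10 Pol III subunit genes. None of the 19 comparison genes did so, and from C to D 1 of them fell, RRN10, a gene of the upstream activating factor, by 0.25. The Pol II gene RPO21, which encodes the largest subunit of that enzyme, rose by 0.49 from C to D, and RPB4 and MAF1 each rose by 0.22. In addition, 22 of 31 genes had negative differences both times, as did 1673 of 5985 genes over the genome. Pearson's r between the 2 differences was 0.379 and Spearman's rho 0.368 over the 31 genes, and they were 0.298 and 0.248 over all genes. From A to D the differences of the 12 genes that fell after both changes ran from 0.020 at RPC37 to -0.54 at RRN7. Of these 12 genes, RPA43, RPC53, RPC31, RPB5 and RRN7 were at least 0.2 lower in sample D than in sample A. Outside the 12 genes, RPC34 and RRN11 were lower too, by 0.30 and 0.22. The share of all genes from A to D is not given here, so that these falls cannot be read as many or few. All 31 genes were read from the same arrays and are no replicates of each other.

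**Figure D3:**
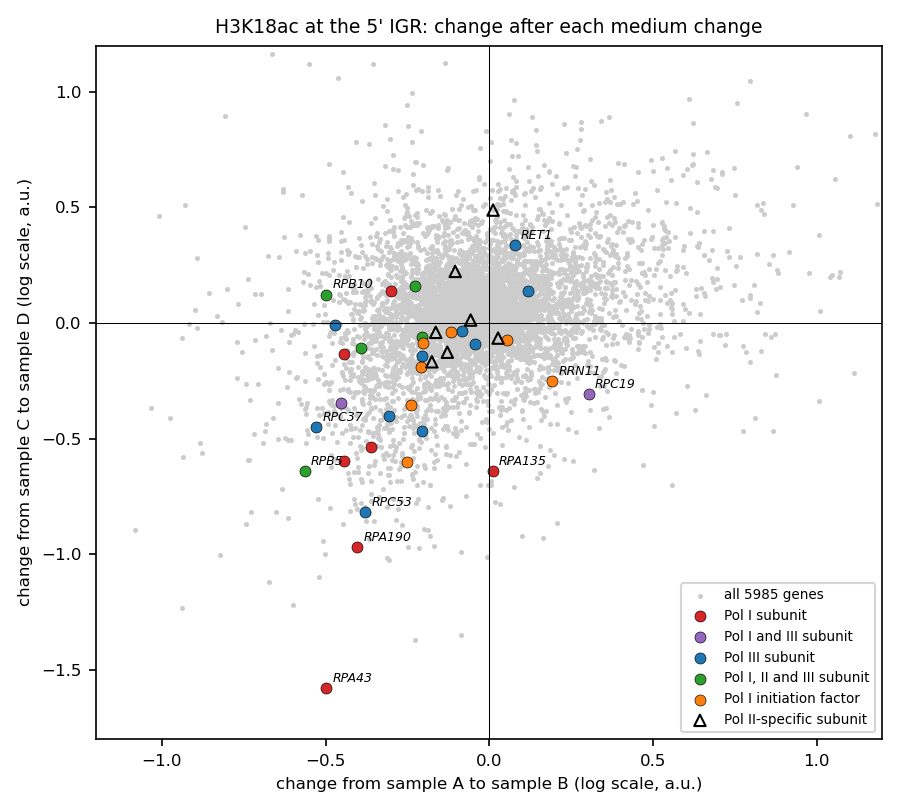
Difference of H3K18ac at the 5′ IGR (log scale, arbitrary units) from A to B on the x axis and from C to D on the y axis. Grey points are all 5985 genes, of which 16 lie outside the axes, coloured points the 31 genes by class and triangles the 7 Pol II-specific subunit genes. Of the 31 coloured points 22 lie below 0 on both axes, and RPA43 is the lowest at -1.58.

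The samples also differed in their order. Sample B was the lowest of the 5 at 20 of 31 genes, against 34.5% of all genes, and sample C the highest at 18, against 19.9% of all genes. Samples B and D were the 2 lowest at 14 of 31 genes, against 18% of all genes. From A to C 12 genes rose, against 9.51% of all genes, and 2 fell, against 14.2% of all genes, with a median difference of 0.109. The Pol I subunit genes held 5 of these 12 rises and had a median of 0.412. The comparisons from A to B and from A to C share sample A. From A to E the median difference was -0.00333, with 3 genes falling, against 12% of all genes, and 5 rising, against 3.26% of all genes.

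Gene length and neighbours were looked at because a 5′ IGR can serve 2 genes. Of the 31 genes 23 have a divergent upstream neighbour or overlap another gene and 8 do not. All of these 8 genes fell from A to B, with a median of -0.207, as did 14 of the 23 others, whose median was -0.361. The differences of the 8 genes ran from -0.203 at RRN9 to -0.251 at RRN7, so that none of them fell by 0.3. The 5 falls within 0.01 of the limit were all among these 8 genes. The upstream neighbour of RPA135 and of RPC17 is a tRNA gene, and these 2 genes were among those that did not fall. The others that did not fall have protein-coding neighbours. So have RPC37, RPC53 and RPC25, which fell and lie head to head with DBP7, SAS10 and LTV1. RPA34, next to the snoRNA gene SNR190, also fell. To which gene of such a pair the signal belongs was not tested. Of the 17 genes shorter than 1 kb 15 fell at the 5′ IGR, against 22.7% of all genes of that length, and of the 4 genes longer than 3 kb 1 fell, RPA190, against 19.8% of all genes of that length. The median was -0.307 over the genes shorter than 1 kb and -0.159 over the 14 others.

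Inside the ORF the difference of H3K18ac from A to B varied with gene length in this set. The median was -0.0863 over the 31 genes and 0.0141 over all genes, with 7 falls, against 5.96% of all genes, and no rise, against 9.59% of all genes. The falls were 0.54 at RPA12, 0.47 at RPA14, 0.39 at RPB10, 0.33 at RPC17, 0.28 at UAF30, 0.23 at RPC11 and 0.21 at RPO26. Each of these genes is shorter than 1 kb. In contrast, the 4 genes longer than 3 kb had higher values 1 hour after transfer to KCl than before, by 0.089 at RPA190, 0.15 at RPA135, 0.072 at RPO31 and 0.027 at RET1. For RPA190 the ORF levels were -0.56, -0.47, -0.47, -0.62 and -0.56 in samples A to E, and for RPA135 they were -0.47, -0.32, -0.42, -0.57 and -0.45. RPO31 had -0.31, -0.24, -0.33, -0.35 and -0.30, and RET1 had -0.46, -0.43, -0.52, -0.48 and -0.40, so that the level inside these long genes was below 0 in every sample. The median over the 14 genes of at least 1 kb was 0.0552, opposite in sign to the whole set. Over the 31 genes Spearman's rho between length and difference was 0.826 and Pearson's r 0.589, whereas over all genes rho was 0.0338. The bins of a short gene cover fewer bases, and the part of bin width in this relation was not tested. From C to D 11 genes fell inside the ORF, against 7.75% of all genes, and none rose, against 8.67% of all genes, with RPA43 falling by 0.72. At the 3′ IGR the median difference of H3K18ac from A to B was -0.00783, against -0.0156 for all genes.

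**Figure D4:**
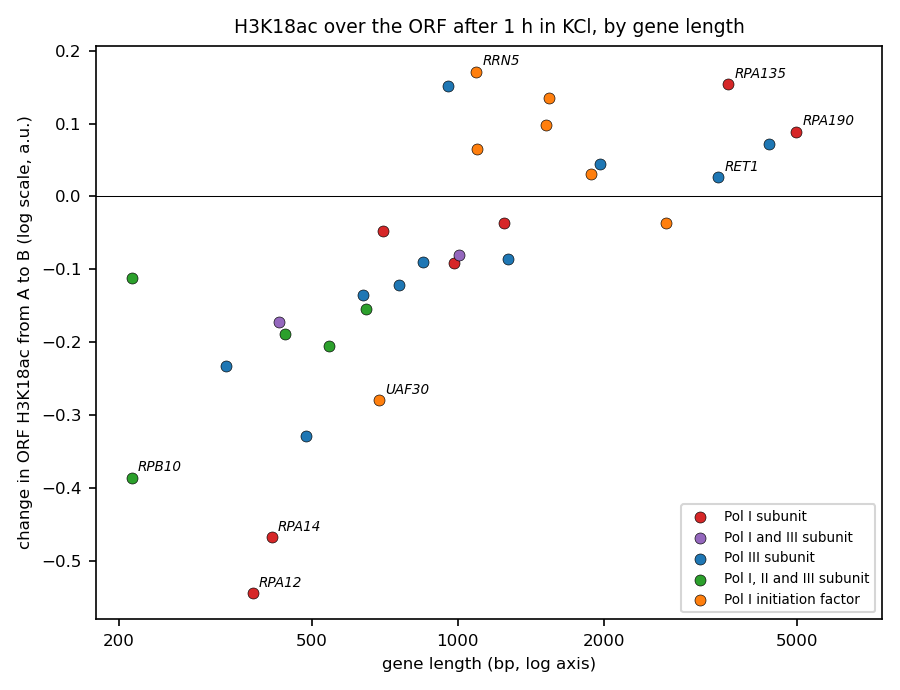
Difference of H3K18ac over the ORF from A to B (log scale, arbitrary units) against gene length (bp, log axis) for the 31 genes, coloured by class. The genes that fell by at least 0.2 are all shorter than 1 kb, and the 4 longest genes lie above 0.

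H3 density upstream of the genes showed smaller differences than H3K18ac. The 5 medians of H3 at the 5′ IGR, in the order of samples A to E, were -0.374, -0.276, -0.320, -0.454 and -0.339. From A to B the median difference was 0.0580 for the 31 genes and 0.0444 for all genes. The number of genes that rose was 9, against 16.4% of all genes, and 2 fell, against 8.62% of all genes. Sample B was the highest of the 5 at 12 of 31 genes, against 25.9% of all genes. Without the 23 genes with a divergent neighbour or an overlap the median difference was 0.125.

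The largest rise of H3 was at RPB5, which also had the largest fall of H3K18ac. Its H3 values were -1.53, -1.05, -0.49, -0.73 and -0.74 in samples A to E. RPB8 had -0.72, -0.38, -0.91, -0.45 and -0.45, and RPA43 had -0.61, -0.28, -0.53, -0.66 and -0.45. At RPA43 sample B was the highest of the 5, and at RPB5 sample C was. The largest falls were at RPC19, with -0.44, -0.83, -0.61, -0.79 and -0.39, and at RPA190, with 0.20, -0.17, -0.13, -0.56 and -0.32 in samples A to E. Of the other genes of the largest subunits, RPA135 rose by 0.26, with 0.030, 0.29, 0.15, 0.078 and 0.17 in samples A to E, whereas RPO31 had 0.28, 0.21, 0.14, 0.20 and 0.33 and RET1 had -0.41, -0.50, -0.46, -0.51 and -0.57. Below the limit, RRN9 had -0.36, -0.55, -0.50, -0.54 and -0.34. Of the 9 genes with a rise of H3, 8 were among the 22 genes with a fall of H3K18ac (88.9% of the former and 36.4% of the latter), while over all genes the shares were 34.2% and 25%. Whatever the direction of H3, H3K18ac fell at 22 of the 31 genes and at 22.4% of all genes, which raises the first share in this set. The H3K18ac and H3 values come from separate arrays, but the study's methods give 1 catalogue number for both antibodies.

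After subtraction of H3 of the same gene, bin and sample the median of H3K18ac was again lowest in sample B and highest in sample C, while sample D was close to samples A and E. The corrected median at the 5′ IGR was 0.565, 0.195, 0.807, 0.516 and 0.532 in samples A to E. From A to B the median difference was -0.365 for the 31 genes and -0.0849 for all genes, with 21 falls, against 33.9% of all genes. Over the 14 genes of at least 1 kb it was -0.0513. For RPA190 the corrected difference was -0.036, its H3 having fallen by 0.37, and for RPB5 it was -1.05. From C to D 17 genes fell, against 15.4% of all genes, among them RPA43 by 1.45.

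Over the ORF, H3 was the highest in sample B at 18 of 31 genes, against 35.1% of all genes, although the median difference from sample A was 0.0321, against 0.0250 for all genes. Rises of at least 0.2 were seen at 2 short Pol I genes, RPA14 by 0.24 and RPA12 by 0.22, against 3.84% of all genes. H3 over the 4 longest genes differed by 0.055 at RPA190, 0.045 at RPA135, 0.016 at RPO31 and -0.0026 at RET1.

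H4K16ac followed H3K18ac at some genes and not at others. At the 5′ IGR the median difference from A to B was -0.0504, against -0.0223 for all genes, with 6 falls, against 8.94% of all genes, and 4 rises, against 4.86% of all genes. Each of the 6 genes with a fall of H4K16ac (RPA49, RPA14, RPC40, RPB5, RPB8 and RPB10) also had a fall of H3K18ac. They made up 27.3% of the genes with a fall of H3K18ac, and over all genes the corresponding shares were 52.5% and 20.9%. The rises were at RPA190, RPC19, RPC17 and RPO26. Of these 4 genes 2, RPA190 and RPO26, had a fall of H3K18ac (50%), against 7.9% over all genes with a rise of H4K16ac. A fall of H3K18ac was itself more common in the set, at 22 of 31 genes against 22.4% of all genes.

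At RPA190 the 2 acetylation marks differed in direction after transfer to KCl and fell together after its removal. H4K16ac at its 5′ IGR was -0.51, -0.069, 0.17, -0.88 and 0.088 in samples A to E. The difference was 0.44 from A to B, and the fall of 1.05 from C to D was the second largest of all genes. RPC17, a Pol III stalk gene next to a tRNA gene, had 0.25, 0.80, 0.33, 0.21 and 0.33, so that sample B stood alone. RPA135 had 0.49, 0.65, 0.81, 0.44 and 0.51, with sample C the highest as for H3K18ac. RPO31 had 0.590, 0.414, 0.585, 0.495 and 0.479, and RET1 had 0.33, 0.21, 0.19, 0.23 and 0.26, so that at both genes sample A was the highest. Over the set, 8 genes fell from C to D, against 8.42% of all genes, and none rose, against 3.43% of all genes. Of these 8 genes 4 were Pol I subunit genes, RPA190, RPA135, RPA43 and RPA34.

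Over the ORF, the genes of the largest Pol I subunits had more H4K16ac in both samples taken in KCl. RPA190 had -0.95, -0.63, -0.50, -0.88 and -0.83 in samples A to E, and RPA135 had -1.03, -0.59, -0.51, -0.97 and -0.88. Samples B and C did not overlap with samples A, D and E at either gene. These were the 2 rises of the set, against 4.19% of all genes, and 2 genes fell, RPA14 and RPA12, against 2.54% of all genes. The corresponding Pol III genes had -0.45, -0.36, -0.36, -0.42 and -0.44 (RPO31) and -0.51, -0.51, -0.42, -0.59 and -0.60 (RET1), with ranges under 0.2 at both. The median difference of the 31 genes was 0.0172, against 0.0186 for all genes.

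Gcn5 at the 5′ IGR of the set was close to that of all genes. Its 5 medians, in the order of the samples, were -0.0614, 0.00770, -0.0286, -0.00264 and -0.0436, and the median difference from A to B was 0.0472 for the 31 genes and 0.0462 for all genes. The number of rises was 6, against 16.8% of all genes, and there was 1 fall, against 7.75% of all genes. Of the 22 genes with a fall of H3K18ac 1 had a fall of Gcn5 (4.55%) and 3 had a rise (13.6%), while over all genes with a fall of H3K18ac the shares were 13.2% and 18.1%. Seen from Gcn5, H3K18ac fell at 100% of the genes with a fall of Gcn5 (1 gene) and at 50% of those with a rise, and over all genes at 38.1% and 24.1%. Whatever the direction of Gcn5, H3K18ac fell at 22 of the 31 genes and at 22.4% of all genes. Across the 31 genes Pearson's r between the differences of H3K18ac and Gcn5 was 0.246, and across all genes it was 0.157.

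The genes with the largest rises of Gcn5 were RRN11, RPC17 and RPC19. RRN11 had -0.25, 0.11, -0.080, -0.16 and -0.32 in samples A to E, RPC17 had -0.14, 0.21, -0.34, -0.15 and -0.21, and RPC19 had 0.15, 0.50, 0.24, 0.31 and -0.038. At these genes sample B was the highest of the 5, and none of them had a fall of H3K18ac. The fall was at RPA14, with 0.61, 0.0077, 0.38, 0.49 and 0.52. Next in order, below the limit, were RPA34 with 0.13, -0.042, 0.16, 0.056 and 0.16 and RRN7 with -0.19, -0.32, -0.16, -0.098 and -0.14. Among the genes of the largest subunits, RPA190 had -0.39, -0.24, -0.19, -0.28 and -0.34 and RPA135 had 0.28, 0.34, 0.40, 0.20 and 0.39. RPO31 had 0.21, 0.23, 0.11, 0.032 and 0.069, and RET1 had -0.23, -0.17, -0.31, -0.23 and -0.14, none of the 4 with a difference of 0.2 between samples A and B. In sample A the Gcn5 file held a value of exactly 0 in 20 of 1178 bins of the 31 genes, spread over 16 genes, and samples B to E held none.

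Over the ORF the Gcn5 median differed by 0.00462 from A to B, against 0.0118 for all genes. With the values as deposited, without a common median, it was -0.0254, so that it has no settled direction. There were 2 falls, against 2.96% of all genes, and 1 rise, against 3.38% of all genes. RPA14 fell by 0.52, with 0.49, -0.031, 0.26, 0.45 and 0.42 in samples A to E, and RRN5 by 0.40, with 0.010, -0.39, -0.14, 0.052 and -0.0074. RPA34 rose by 0.20, with 0.028, 0.23, 0.029, -0.041 and -0.015. The values of RPA43 were 0.0035, 0.15, 0.090, -0.020 and 0.068, those of RPC82 -0.14, -0.0084, -0.21, -0.12 and -0.25, and those of RPB10 0.033, -0.092, 0.061, -0.031 and -0.028, none with a difference of 0.2 between samples A and B.

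The 4 genes longer than 3 kb had little difference of Gcn5 over the ORF. RPA190 had 0.016, -0.012, -0.028, -0.027 and 0.0025 in samples A to E, and RPA135 had 0.016, 0.0063, 0.017, -0.030 and -0.017. RPO31 had -0.13, -0.12, -0.15, -0.17 and -0.17, and RET1 had -0.16, -0.093, -0.22, -0.21 and -0.092. The median difference from A to B was -0.00279 over these 4 genes and 0.0416 over all 526 genes longer than 3 kb. Sample B was the highest of the 5 at 1 of the 4 genes, RPO31, and at 68.6% of all genes of this length. At RET1 samples B and E were nearly equal, -0.093 and -0.092, so that the count over these 4 genes rests on a near tie.

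Behind the stop codon the median of Gcn5 was higher 1 hour after transfer to KCl than before, as it was over all genes. At the 3′ IGR 12 of 31 genes rose from A to B, against 28.7% of all genes, and 1 fell, against 4.14% of all genes, with medians of 0.142 and 0.107. The largest rise was 0.86 at RRN11, number 19 of all genes, with -0.64, 0.21, -0.43, -0.46 and -0.41 in samples A to E. RPA49 had -0.064, 0.56, 0.20, 0.11 and 0.073, and RET1 had 0.11, 0.68, 0.23, 0.010 and 0.022. At these 3 genes sample B was the highest of the 5. At RRN11 the H3K18ac level of the same bins fell by 0.67 and the H3 level by 0.61.

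**Figure D5:**
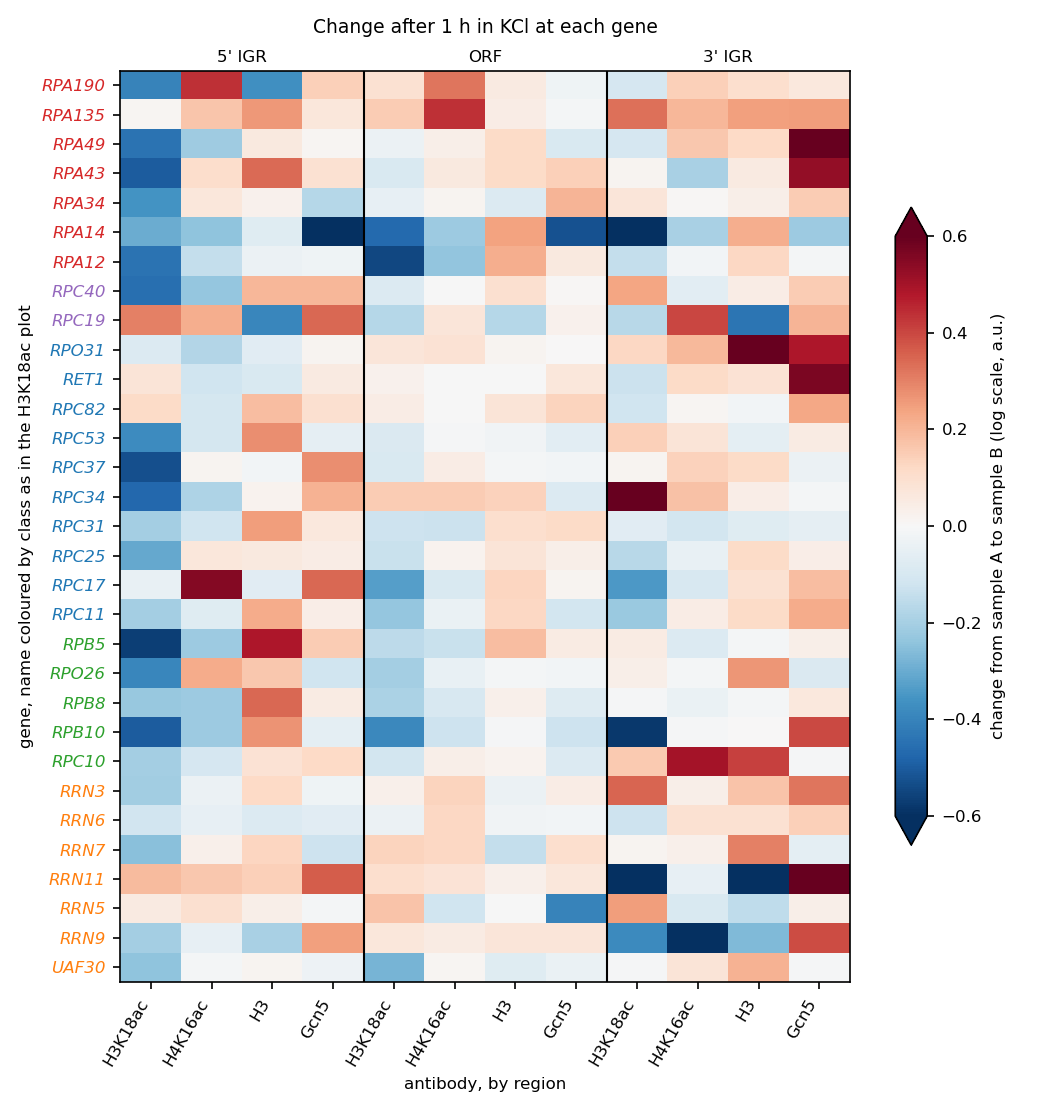
Difference from A to B (log scale, arbitrary units, colours limited at -0.6 and 0.6) of H3K18ac, H4K16ac, H3 and Gcn5 at the 5′ IGR, ORF and 3′ IGR of each of the 31 genes, in rows ordered by class. The first column, H3K18ac at the 5′ IGR, holds falls of at least 0.2 at 22 genes, and no other column holds as many.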

How the data were processed

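ChIP against input was quantified by the authors in Tiling Analysis Software from Affymetrix, and their methods state a common median for the 5 samples without saying over which positions. What they deposited is a score on a log scale with arbitrary units, given as bin means for 38 bins of each ORF. The genome build is not given in the sources used here. The files list 6685 ORFs, of which 6 were empty, 1 (YJR162C) held values above 20, and 5985 were nuclear protein-coding genes of the RefSeq table (assembly R64, used for names, lengths and neighbours only). The 5 samples of an antibody were brought to 1 median over all bins, the average of their deposited medians (0.282 in H3K18ac, 0.131 in H3, 0.213 in H4K16ac, -0.0636 in Gcn5). H3 correction was subtraction. The number of arrays limits the precision, and depth does not apply.

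The members and lists were chosen with earlier results of these data known. Genes given with all 5 values are RPA190, RPA135, RPO31, RET1 and the 3 largest rises and falls of H3K18ac, H3 and Gcn5 at the 5′ IGR and of Gcn5 at the ORF from sample A to sample B, and further genes were chosen after their values were seen. A planned search for promoter motifs was not run, since promoter sequence was not used here. Alternatives covered the normalization, the genes and bins included, the mean in place of the median, the sample compared with and, added after seeing the data, limits of 0.1 and 0.3. The functions were tested on simulated data. Versions were matplotlib 3.10.9, scipy 1.17.1, pandas 2.3.3 and numpy 2.4.6 under Python 3.11.15.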

Additional observations from a re-analysis of the deposited data

How the results depend on the processing

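No paired analysis was possible because there is 1 value per antibody and sample. Of 138 values under alternatives, 111 stayed within a spread or, for counts, within 1.5 times, 21 moved and 6 changed sign. This spread was the standard deviation of the medians of the other samples, so it includes differences between states. For H3K18ac at the 5′ IGR from sample A to sample B it was 0.132. There, -0.159 over the genes of at least 1 kb, in place of -0.239, counted as unmoved. The median difference of H3K18ac at the 5′ IGR from sample A to sample B and from sample C to sample D kept its direction under each alternative run. The Gcn5 median at the ORF turned to -0.0254 with values as deposited, -0.0248 with quantile normalization, -0.0170 as a mean and -0.00720 after subtraction of the median of all genes, and was 0.0248 against the mean of the other samples. The count of genes with sample B highest for Gcn5 at the ORF, 12, was 7 with values as deposited and 7 with quantile normalization. The share of all genes for this count is not given here, so it cannot be read as high or low. The Gcn5 median at the 5′ IGR was 0.0172 as deposited, 0.00259 with quantile normalization, 0.0766 in the 4 bins next to the start codon and 0.000987 after subtraction of the median of all genes. That subtraction gave -0.00139 for H4K16ac and 0.00710 for H3 at the ORF. Against the mean of the other samples H3 at the ORF was 0.0640 and Gcn5 minus H3 at the 5′ IGR -0.0136. With the 14 genes of at least 1 kb, H3K18ac at the ORF was 0.0552, H4K16ac at the ORF 0.0658 and H3K18ac minus H3 at the 5′ IGR -0.0513. Without genes that overlap another or have a divergent neighbour, H3 at the 5′ IGR was 0.125 and Gcn5 minus H3 -0.165. In these 2 smaller sets, of 14 and 8 genes, sample B was lowest for H3K18ac at 6 and 4 genes, against 34.5% of all genes. It was highest for H3 at the 5′ IGR at 7 and 5 genes, against 25.9% of all genes. For Gcn5 at the ORF it was highest at 6 and 4 genes, again without a share of all genes. With a limit of 0.3, 13 genes fell in H3K18ac from sample A to sample B. The cause of these changes was otherwise not tested.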
